A study of Rattus norvegicus with 32 samples.

Results

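The complement system was followed through 9 genes: the chains of C1q (C1qa, C1qb and C1qc), the protease C1s, the components C2, C3 and factor B (Cfb), and the receptors C3ar1 and C5ar1. They were found as the probes that carried one of these names in the array files, which gave 12 of the 45598 probes on the array that were not controls, and 9 of the 18641 gene names. In every comparison the 9 reported probes passed the filter on dim probes, and they were well above background on each of the 32 arrays.

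Left ventricles were taken 20 h after surgery from Wistar rats aged 9 to 12 weeks, with 5 sham, 5 CLP and 6 CLP plus landiolol animals in each sex, 1 array per heart. CLP (cecal ligation and puncture) opens the gut into the abdomen and is a surgical model of sepsis. Landiolol blocks the β1-adrenergic receptor and is cleared within minutes. Infusion of saline, or of landiolol in saline in the third group, was started after surgery, with a similar volume in all groups. All rats received buprenorphine, and their hearts had been perfused outside the body for functional measurements before they were frozen. Values are log2 signals of a 1-colour Agilent array, quantile-normalised within a sex, so they compare groups for 1 probe and not 1 gene with another.

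Complement is a cascade of plasma proteins that marks microbes and injured cells. C1q recognises antibody or damaged surfaces and activates C1r and C1s, C1s cleaves C4 and C2 in the classical pathway, and factor B takes the place of C2 in the alternative pathway. Both pathways meet at C3, and the fragments C3a and C5a that are released act on C3ar1 and C5ar1, receptors carried largely by myeloid cells. The liver makes most plasma C3 and factor B, while tissue macrophages are a main source of C1q.

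The probes for C3, Cfb and C2, the members with the largest changes after CLP in females, are shown because each gene rests on a single probe of 60 bases. In build rn4 the C3 probe lies at chrUn:64513437-64513496 on the minus strand. The C2 probe lies at chr20:4071504-4071563 and the Cfb probe at chr20:4076976-4077119, both on the plus strand and 5412 bases apart. The Cfb probe covers 144 bases of the genome with 60 bases, so its match is split. They are written 5′ to 3′.
C3: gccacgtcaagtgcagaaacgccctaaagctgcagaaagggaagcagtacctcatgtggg
Cfb: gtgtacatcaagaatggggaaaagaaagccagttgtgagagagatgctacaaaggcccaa
C2: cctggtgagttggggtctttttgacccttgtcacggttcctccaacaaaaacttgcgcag

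C3ar1 was read by 3 probes on the minus strand of chromosome 4, and they did not give the same call. The reported one, A_44_P1105125 at chr4:159324142-159324201, is assigned in the files to a predicted transcript variant. A_64_P166460 at chr4:159326458-159326517 is assigned to the reference mRNA and A_44_P1160368 at chr4:159326404-159326463 to an Ensembl transcript. These 2 share 6 bases and lie 2202 bases or more upstream of the reported probe. The last 30 bases of each are given, with AATAAA, a polyadenylation hexamer, in capitals where it occurs.
A_44_P1105125: tccccatgAATAAAtgcttttatctacaaa
A_64_P166460: ctttattgtacatttgtgtggtggtagcag
A_44_P1160368: gagaaagacacagaAATAAAaggtctctgg

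The first comparison asked what sepsis changed in the heart. In males, CLP raised C3, Cfb and C3ar1, so 3 of the 9 genes passed the FDR of 1% (limma, Benjamini-Hochberg over all 25864 probes kept) and all 3 rose. Over all probes, 7.81% passed. In females, C3 rose and no other member passed, 1 of 9, against 3.63% of the 25394 probes kept. The median log2 fold change over the 9 members was 0.41 in males and 0.03 in females, beside 0.01 and -0.02 over all probes. The C1q chains, C1s and C5ar1 did not pass in either sex.

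C3, on which all pathways of the cascade converge, had the largest change. In male shams the 5 arrays read 7.15, 7.90, 7.56, 6.69 and 7.17. In male CLP they read 11.66, 12.43, 12.04, 11.97 and 12.54. Every septic male was far above every sham. The log2 fold change was 4.83 with a standard error of 0.23 and an adjusted p of 3.52e-09 (limma), a 28.45-fold rise, which ranked 9 by size among the risen probes. In female shams C3 read 7.55, 7.24, 8.93, 6.35 and 8.37, and in female CLP 11.99, 11.40, 11.66, 10.89 and 11.99. Again the groups did not overlap, although the female shams were more spread (SD 1.003 against 0.46 in male shams). The log2 fold change in females was 3.89 ± 0.39 (SE), 14.87-fold, with an adjusted p of 3.46e-05 (limma).

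Cfb encodes factor B, the protease-bearing partner of C3 in the alternative pathway. The male shams read 9.52, 8.93, 8.34, 8.09 and 8.53. In male CLP the arrays read 10.06, 11.12, 10.16, 11.44 and 11.75. The lowest septic male lay above the highest sham, and the log2 fold change was 2.22 ± 0.36 (SE), 4.669-fold, with an adjusted p of 0.000686 (limma). In females the shams read 10.51, 9.79, 10.81, 8.83 and 10.77, and the CLP arrays 11.18, 10.74, 11.54, 10.90 and 11.57. These female groups overlapped, and the log2 fold change of 1.05 ± 0.36 (SE) had an adjusted p of 0.0849 (limma), which did not pass.

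C3ar1, the receptor of C3a, read 7.29, 7.45, 7.26, 7.42 and 7.38 in male shams on its reported probe. In male CLP it read 8.28, 8.44, 8.41, 8.30 and 8.07. The groups were narrow and apart, with a log2 fold change of 0.94 ± 0.11 (SE) and an adjusted p of 6.39e-05 (limma). In females the shams read 6.64, 6.91, 7.25, 7.21 and 6.45, and the CLP arrays 8.40, 8.38, 7.38, 7.39 and 7.89. The female groups did not overlap either, and the log2 fold change was of the same size, 0.99 ± 0.24 (SE), but its adjusted p of 0.0174 (limma) passed 5% and not 1%. Without adjustment, 4 members in each sex had a p under 0.05, beside 28.8% of all probes in males and 23.1% in females. Non-overlapping groups were found for 3 members in males and 3 in females (C2, C3 and C3ar1), beside 12.3% and 8.32% of all probes.

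The calls of C3ar1 rested on 1 of its 3 probes. In males, CLP vs sham gave 0.50 ± 0.24 (SE, adjusted p 0.175) for A_64_P166460 and 0.02 ± 0.20 (SE, adjusted p 0.962) for A_44_P1160368 in the same limma fit. In females the values were 0.81 ± 0.36 (SE, adjusted p 0.186) and 0.51 ± 0.27 (SE, adjusted p 0.289). Both were positive in both sexes and neither passed. With the mean of the 3 probes, the male change was 0.49 with an adjusted p of 0.0425 (limma).

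**Figure D1:**
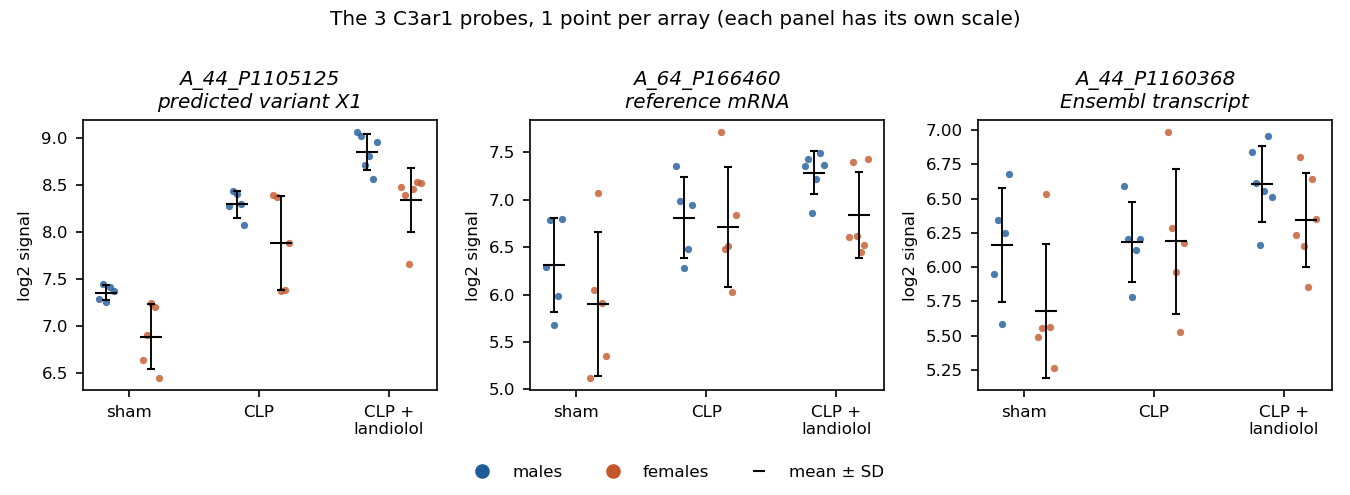
Log2 signal (y axis) of the 3 C3ar1 probes in sham, CLP and CLP plus landiolol hearts (x axis), 1 point per array, males in blue and females in orange, with the mean and SD of each group in black. On A_44_P1105125 the male groups form 3 separate steps with means of 7.36, 8.30 and 8.86, while on the other probes sham and CLP arrays overlap.

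C2, the classical pathway protease encoded next to Cfb, went the other way in females. The female shams read 9.21, 9.12, 9.73, 8.69 and 9.06, and the CLP arrays 8.58, 8.21, 8.27, 7.52 and 7.93. Every septic female was below every sham, with a log2 fold change of -1.06 ± 0.32 (SE) and an adjusted p of 0.0482 (limma), which did not pass 1%. In males the shams ran from 7.82 to 9.12 and the CLP arrays from 7.72 to 9.17, groups that overlapped throughout, and the log2 fold change was 0.21 ± 0.35 (SE, adjusted p 0.772, limma).

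**Figure D2:**
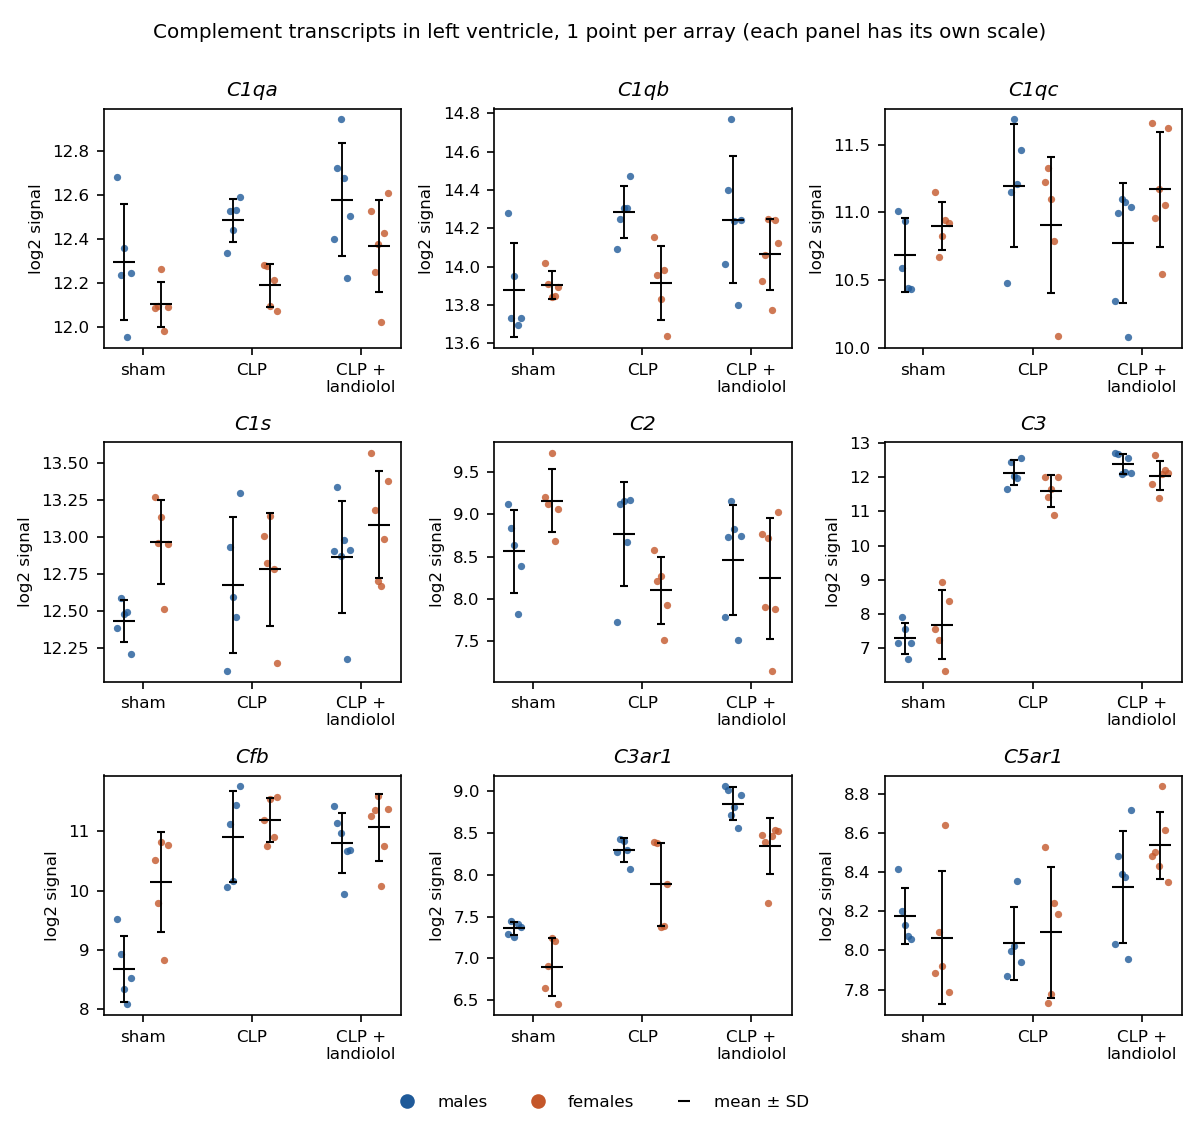
Log2 signal (y axis, a separate scale in each panel) of the reported probe of the 9 complement genes in sham, CLP and CLP plus landiolol hearts (x axis), 1 point per array, males in blue and females in orange, with the mean and SD of each group in black. C3 moves from the range of 6.35 to 8.93 in shams to 10.89 or more in all septic arrays, whereas the C1q chains, C1s and C5ar1 overlap in all groups.

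C1q forms the recognition unit of the classical pathway, and its 3 chains are encoded side by side on chromosome 5. C1qa ran from 11.95 to 12.68 in male shams and from 12.34 to 12.59 in male CLP, a log2 fold change of 0.19 with a 95% confidence interval of -0.12 to 0.50. For C1qb the male change was 0.41 (0.06 to 0.76, adjusted p 0.111, limma), and for C1qc it was 0.52 (-0.002 to 1.03, adjusted p 0.176, limma). In females the changes were 0.09 (-0.17 to 0.34) for C1qa, 0.01 (-0.26 to 0.28) for C1qb and 0.01 (-0.50 to 0.52) for C1qc. The groups of every chain overlapped in both sexes. A missed threshold does not show that the levels were equal, and the intervals leave room for changes of up to 1.03 in males and 0.52 in females.

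C1s, the protease that C1q sets off through C1r, changed by 0.24 in males (-0.21 to 0.70) and by -0.18 in females (-0.64 to 0.27) after CLP. Its 2 probes share 49 of 60 bases, and the second gave 0.25 and -0.19, nearly the same values. C5ar1, the receptor of C5a, ran from 8.06 to 8.42 in male shams and from 7.87 to 8.35 in male CLP, a change of -0.14 (-0.45 to 0.17). In females it changed by 0.03 (-0.36 to 0.42). Sham and CLP arrays overlapped for C5ar1 in both sexes, and on the reported probe of C3ar1 in neither.

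The second comparison asked what landiolol changed in septic hearts. In males C3ar1 alone passed the FDR of 5%, 1 of 9 members, where 1.56% of all probes passed and it rose. In females 0 of 9 members passed, where 0.0945% of all probes did, and 0 of 9 had groups that did not overlap, beside 1.15%. Without adjustment, 1 member in each sex had a p under 0.05 (C3ar1 in males and C5ar1 in females), beside 14.8% and 9.34% of all probes. SAM called 0 members in females as well.

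In male CLP plus landiolol, C3ar1 read from 8.56 to 9.06 with a median of 8.88, above the CLP range of 8.07 to 8.44. The groups did not overlap, as for 1 of 9 members and 2.26% of all probes, and the log2 fold change was 0.56 ± 0.11 (SE) with an adjusted p of 0.018 (limma). The other probes of C3ar1 changed by 0.48 ± 0.23 (SE, adjusted p 0.342) and 0.42 ± 0.19 (SE, adjusted p 0.328). In females the reported probe read from 7.66 to 8.54 with a median of 8.47, which overlapped with CLP, and changed by 0.46 ± 0.23 (SE, adjusted p 0.573, limma). The male call was lost when only the arrays of the groups compared entered the fit (adjusted p 0.0694), with the mean of the C3ar1 probes (0.122), and without the fourth male CLP array (0.0555, limma).

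C3 did not pass between landiolol-treated and untreated septic hearts. The male CLP plus landiolol arrays ran from 12.09 to 12.70 with a median of 12.35, and the change against CLP was 0.25 with a 95% confidence interval of -0.20 to 0.71. In females the arrays ran from 11.40 to 12.64 with a median of 12.10, a change of 0.46 (-0.33 to 1.25). Cfb changed by -0.10 (-0.84 to 0.63) in males and by -0.12 (-0.86 to 0.61) in females. For both genes the landiolol and CLP arrays overlapped in each sex.

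C2 in landiolol-treated females ran from 7.15 to 9.03 with a median of 8.31, a change of 0.14 (-0.51 to 0.79) against CLP. In males it changed by -0.31 (-1.02 to 0.41). C5ar1 changed by 0.29 (-0.01 to 0.58) in males and by 0.44 (0.07 to 0.82, adjusted p 0.426, limma) in females. The C1q chains changed by -0.43 to 0.09 in males and by 0.15 to 0.26 in females, and C1s by 0.19 and 0.30. None of these values passed.

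Against sham, the same sham arrays being used as for CLP, landiolol-treated males had C3, Cfb and C3ar1 higher, 3 of 9 members, where 4.15% of all probes passed. The log2 fold changes were 5.08 ± 0.22 for C3, 2.12 ± 0.34 for Cfb and 1.497 ± 0.11 for C3ar1 (SE), with adjusted p of 8.37e-10, 0.00117 and 6.4e-07 (limma). In females C3 and C3ar1 passed, 2 of 9 members, where 5.25% of all probes passed. They changed by 4.35 ± 0.37 and 1.45 ± 0.23 (SE), with adjusted p of 6.01e-06 and 0.000878 (limma). The groups did not overlap for those 3 members in males and those 2 in females, beside 7.79% and 9.74% of all probes. Without adjustment, 4 and 6 members had a p under 0.05, beside 24.2% and 26.7%. C2 in females changed by -0.92 ± 0.31 (SE), and did not pass (adjusted p 0.0596, limma). Neither A_64_P166460 nor A_44_P1160368, the other C3ar1 probes, passed in either sex. They changed by 0.98 ± 0.23 and 0.44 ± 0.19 in males (SE, adjusted p 0.0121 and 0.172, limma). The female values were 0.94 ± 0.35 and 0.66 ± 0.26 (SE, adjusted p 0.0888 and 0.113, limma).

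**Figure D3:**
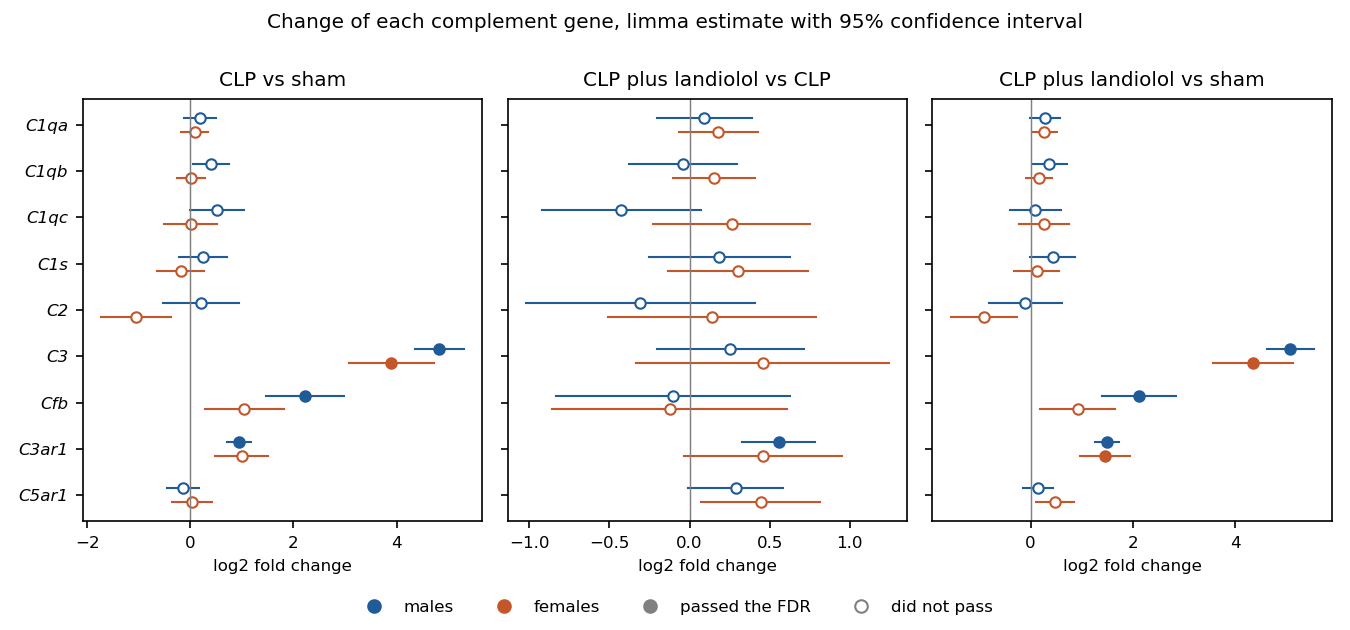
Log2 fold change (x axis) of the 9 complement genes (y axis) in the 3 comparisons, males in blue and females in orange, as the limma estimate with its 95% confidence interval. Filled points passed the FDR of the comparison. C3 lies at 4.83 and 3.89 after CLP and at 0.25 and 0.46 between landiolol-treated and untreated septic hearts, and C3ar1 in males is the single filled point in the middle panel.

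Whether the sexes differed was read from an interaction term, fitted to all 32 arrays after joint quantile normalisation. None of the 9 members and none of the 26490 probes passed the FDR of 5% (limma) for CLP vs sham or for CLP plus landiolol vs CLP, a share of 0%. Without adjustment, C2 and Cfb had a p under 0.05 for CLP vs sham, beside 3.76% of all probes, and C1qc for landiolol, beside 4.93%. The female change minus the male change was -1.27 for C2 (95% confidence interval -2.28 to -0.27), -1.13 for Cfb (-2.22 to -0.05), -0.85 for C3 (-1.80 to 0.10) and 0.06 for C3ar1 (-0.49 to 0.61). Their adjusted p were all 1. A call in males and not in females, as for Cfb after CLP, was thus not a difference that passed its own test.

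The arrays of a sex lay on 2 slides, with each group on both, and slide and sex cannot be told apart. The first female slide was also read with another version of the extraction protocol than the other slides, so slide and protocol cannot be told apart in females. Within a slide each group mean rested on 2 or 3 arrays, and a difference between slides was not tested. The estimated change of Cfb was larger on the second slide in both sexes. In males CLP minus sham was 1.22 on the first slide and 3.27 on the second, and in females it was 0.13 and 2.12. C3 in females was 2.86 on the first slide and 5.08 on the second, against 4.51 and 5.11 in males. C3ar1 had nearer values on the slides, at 1.003 and 0.84 in males and at 1.10 and 0.83 in females. Under landiolol in males, C3ar1 rose by 0.56 and 0.59 on the male slides, while Cfb changed by 0.73 and -1.17. After CLP, female C2 was lower on both slides, by -1.47 and -0.65. Male C2 changed by -0.31 on the first male slide and by 0.64 on the second.

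With the slide as a term, the same members passed in all 6 comparisons within a sex. In females the row of the slide also went with the groups, since all shams were in row 1 and all landiolol arrays in row 2, with CLP in both. With the row as a term, C3 in females still passed against sham after CLP (3.99, adjusted p 0.000428) and after CLP plus landiolol (4.60, adjusted p 0.00986, limma). Female C3ar1 after CLP plus landiolol did not pass (1.87, adjusted p 0.0808, limma), and C2 in the same comparison changed by -0.29 (adjusted p 0.912, limma). After CLP, female C2 changed by -0.81 with the row as a term (adjusted p 0.241, limma).

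**Figure D4:**
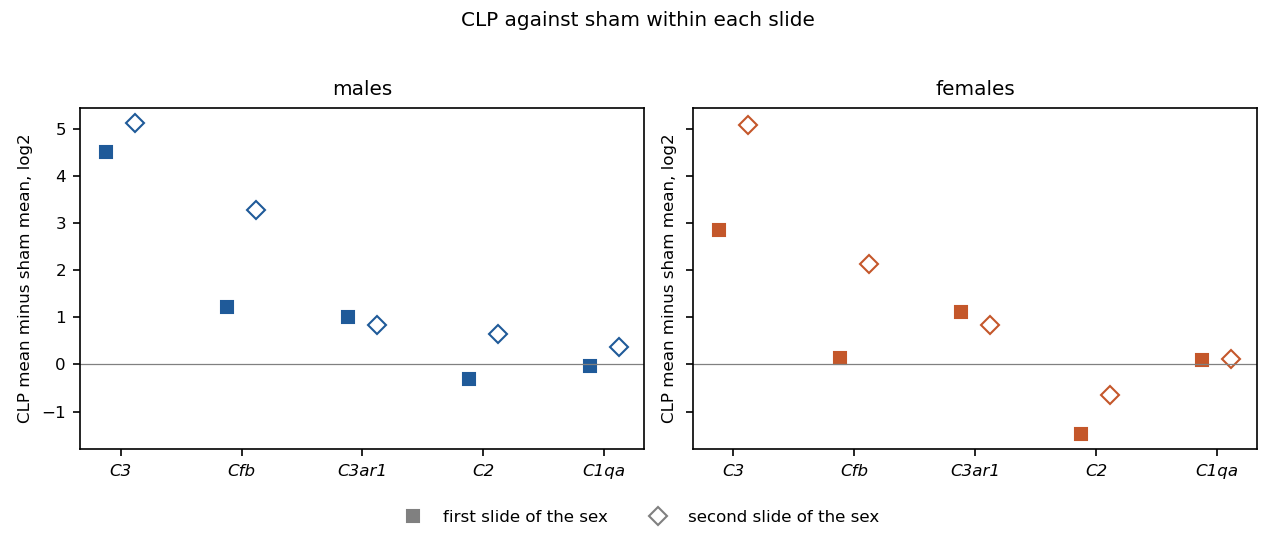
Mean of the CLP arrays minus mean of the sham arrays on the log2 scale (y axis) for 5 genes (x axis), computed within the first slide (filled squares) and the second slide (open diamonds) of males (left) and females (right). Each mean is of 2 or 3 arrays. The 2 values of C3ar1 lie close together, and those of Cfb lie apart in each sex (1.22 and 3.27 in males, 0.13 and 2.12 in females).

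In whole ventricle, a change in the number of cells of a type and a change in the RNA per cell cannot be told apart, and marker lists were read beside the members. Of 12 macrophage and monocyte markers, 10 passed the filter. After CLP 3 of them (Cd68, Adgre1 and Lyz2) were higher in each sex and 7 were not called. Over all probes 7.81% passed in males and 3.63% in females. The median log2 fold change of the 10 markers was 0.66 in males and 0.50 in females. The mean log2 level of the list ran from 8.62 to 8.91 in male shams, from 9.20 to 9.81 in male CLP and from 9.21 to 9.89 in landiolol-treated males. In females it ran from 8.72 to 8.91, from 8.96 to 9.42 and from 9.24 to 9.47. Marco was well above background on no female and no male CLP array, and Ccr2 on no septic female array. Under landiolol Aif1 was higher than in CLP in males (0.72 ± 0.14 SE, adjusted p 0.0207, limma). It was 1 of the 10 markers, where 1.56% of all probes passed, and 9 were not called. The median log2 fold change of the 10 was 0.11 in males, and in females 0 were called. Of 9 neutrophil markers, S100a8 and S100a9 passed the filter. Both were higher after CLP in males and S100a8 in females. In shams of either sex 0 of the 9 were well above background on every array. S100a8 was well above background on no male sham array. In males it was thus kept through septic groups, where it was high, and its call was not independent of the filter. Elane, Ngp and Mmp8 were well above background on none of the 32 arrays. Most markers in the mean of this list did not pass the filter. The list's mean log2 level ran from 2.39 to 2.92 in male shams and from 3.37 to 4.15 in male CLP, and from 2.57 to 3.03 and from 3.602 to 4.21 in females. Under landiolol it ran from 3.78 to 4.37 in males and from 3.41 to 4.56 in females. The part of these cells in the changes of C3, Cfb and C3ar1 was not tested.

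Among 6 hepatocyte markers, 1 passed the filter and 0 changed. Alb, Apoh and Serpina1, which define the cell type, were well above background on none of the 32 arrays. The mean log2 level of the list ran from 4.38 to 4.71 in male shams and from 4.38 to 4.55 in male CLP. In females it ran from 4.22 to 4.62 and from 4.08 to 4.62. With 1 of 6 markers past the filter this mean could show little change, and the part of hepatocytes in the changes was not tested. Cardiomyocyte markers, 7 of 7 well above background on every array, had no member that passed in any comparison, with median changes after CLP of -0.02 and 0.02. Of 6 fibroblast markers, Col1a1, Col1a2, Col3a1 and Lum were lower after CLP in males and none passed in females, with a mean log2 level of the list from 12.63 to 13.39 in male shams and from 11.23 to 12.33 in male CLP. In females the list ran from 12.13 to 12.72 in shams and from 10.74 to 12.45 in CLP, and its median log2 fold change was -1.07, beside -1.61 in males. The part of fibroblasts in the changes was not tested. Lymphocyte markers (3 of 7 passed the filter) had no call, and of 5 endothelial markers only Kdr passed, in landiolol-treated females vs sham.

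A further 45 complement genes were looked up, of which 44 had a probe, 32 passed the filter in males and 29 in females. After CLP, 5 were higher and 1 was lower in males, and 0 were higher and 1 was lower in females, where 7.81% and 3.63% of all probes passed. Their median log2 fold change was 0.04 in males and -0.01 in females, beside 0.01 and -0.02 over all probes. C9, Mbl1, Mbl2, Colec10 and Cr2 were well above background on none of the 32 arrays.

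Both chains of complement receptor 3 were higher in septic males. Itgam rose by 1.27 ± 0.17 and Itgb2 by 1.31 ± 0.17 (SE, adjusted p 0.000129 for each, limma). In females Itgb2 changed by 0.995 ± 0.22 (SE, adjusted p 0.0107), with no overlap between the groups. Itgam in females, where 1 sham array had no value, changed by 1.49 ± 0.52 (SE, adjusted p 0.091, limma). Vsig4, a receptor for C3 fragments on macrophages, was not well above background on any male sham array and was on all 5 male CLP arrays. It was at least 3.94-fold higher there (means 5.09 and 2.01 as measured, adjusted p 0.00335, limma). In males Vsig4 passed the filter only through the CLP group, where it was high. Its call, and its place among the 5 further genes that were higher, were thus not independent of the filter. In landiolol-treated males it was well above background on 4 of 6 arrays (mean 4.41). In females Vsig4 did not pass the filter and was not tested. It was well above background there on 0 of 5 sham, 3 of 5 CLP and 4 of 6 landiolol arrays (means 2.46, 5.40 and 4.73).

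Among regulators, Serping1, the C1 inhibitor that blocks C1r and C1s, rose by 0.76 ± 0.18 (SE, adjusted p 0.00765) and Cd59, which stops the terminal complex on membranes, by 0.63 ± 0.11 (SE, adjusted p 0.0011) in septic males. Cd93, a receptor of endothelium once taken for a C1q receptor, fell by 1.15 ± 0.19 (SE, adjusted p 0.000775). In females Fcna, a ficolin of the lectin pathway, fell by 1.12 ± 0.24 (SE, adjusted p 0.00875), and in males it changed by -1.06 ± 0.33 (SE, adjusted p 0.0365). All are limma values.

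Under landiolol 2 of the 32 further genes were lower than in CLP in males and none was higher, where 1.56% of all probes passed. Clu, the fluid-phase inhibitor clusterin, fell by 0.79 ± 0.15 (SE, adjusted p 0.0161) and Cd59 fell by 0.44 ± 0.10 (SE, adjusted p 0.0446, limma). In females 0 of the 29 passed, beside 0.0945% of all probes. Against sham, landiolol-treated males had C4b (1.54 ± 0.30), Serping1 (1.02 ± 0.17), Itgam (1.49 ± 0.16) and Itgb2 (1.63 ± 0.17) higher (SE, adjusted p 0.00453 to 2.01e-05). These were 4 of 32 genes, beside 4.15% of all probes. Females had C5ar2 (1.08 ± 0.20, adjusted p 0.00273), the second receptor of C5a, and Itgb2 (1.19 ± 0.21, adjusted p 0.00203, limma) higher. That was 2 of 29 genes, beside 5.25% of all probes. C4b shares most of its sequence with C4a, so their signals may not be separate.

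Members were then compared with each other within groups, after the mean of each group had been taken from its arrays, in 6 pairs over 32 arrays. C1qa and C1qb followed each other with a Pearson r of 0.81 and a Spearman rho of 0.72 (adjusted p 3e-05 and 0.00021, permutation within groups, two-sided). For C1qa and C1qc r was 0.70 and rho 0.70 (3e-05 and 0.00021), and for C1qb and C1qc 0.67 and 0.63 (0.00026 and 0.00154, permutation). The C1q chains thus varied together among hearts of 1 group, in males (r of 0.93, 0.72 and 0.78) and in females (0.52, 0.70 and 0.54). Without the 2 arrays farthest from the median in the first gene of a pair, r was 0.71, 0.71 and 0.63. With slide means also removed, r was 0.79, 0.70 and 0.67.

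C3 and Cfb had an r of 0.57 and a rho of 0.52 (adjusted p 0.00702 and 0.0127, permutation), which fell to an r of 0.41 without the 2 farthest arrays. C2 and Cfb, genetic neighbours, had 0.47 and 0.40 (0.0126 and 0.039, permutation), with 0.32 in males, 0.64 in females and 0.32 without the farthest arrays. The farthest arrays were picked by the first gene of a pair, so arrays far out in the second gene could stay in. No test was run on the values by sex or without the farthest arrays. C3ar1 and C5ar1 had 0.30 and 0.21 (0.189 and 0.334, permutation), which did not pass. RNA amount and array brightness are shared by both probes of a pair and were removed only as far as quantile normalisation does it.

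**Figure D5:**
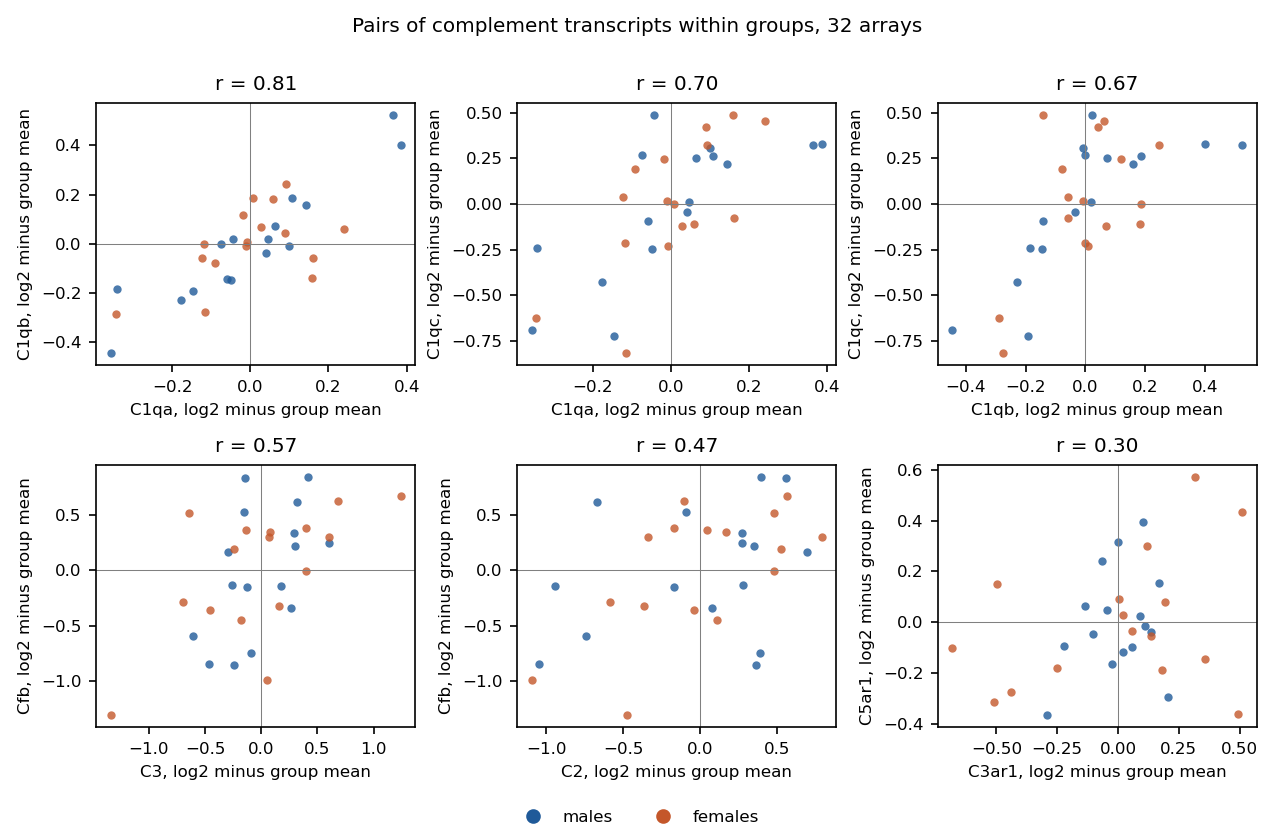
Log2 signal minus the mean of its group for 6 pairs of complement genes (x and y axes), 32 arrays, males in blue and females in orange. The C1q pairs form a rising band (r of 0.81, 0.70 and 0.67), C3 with Cfb and C2 with Cfb a looser one (0.57 and 0.47), and C3ar1 with C5ar1 a cloud (0.30).

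Among 12765 other named genes kept in both sexes, those whose levels were most like C3 over the 32 arrays, with each sex's mean removed, were Saal1 (r 0.97), Ncf4 (0.95) and Slc11a1 (0.95). For C1qa they were Slc43a3 (0.74), Lonrf3 (0.73) and Ang (0.71), and for C5ar1 Apobec1 (0.82), Ctgf (0.76) and Agap1 (0.74). These are descriptions over arrays that hold the treatment differences as well.

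RefSeq promoter windows were found for 4 of the 9 members (C1qa, C1qb, C3 and C3ar1). The 250 bases before the start of C3, chr9:2201340-2201589 on the minus strand of build GRCr8, are given because C3 changed most.
C3: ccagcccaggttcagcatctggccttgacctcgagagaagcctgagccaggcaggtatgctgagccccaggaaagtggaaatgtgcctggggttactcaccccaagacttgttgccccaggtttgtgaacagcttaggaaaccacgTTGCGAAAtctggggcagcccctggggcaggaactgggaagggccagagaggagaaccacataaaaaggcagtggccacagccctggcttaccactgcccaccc
Capitals mark a match to the letters TTGCNNAA, used for C/EBP, which begins 104 bases before the start. In all, 9.22% of the 33469 windows of this length hold these letters on either strand. The letters used for NF-kB (GGANTTTCC, in 1.08% of windows), STAT (TTCNNNGAA, in 7.67%) and the interferon response element (AAANNGAAA, in 10.3%) were not in the C3 window. C1qa had 1 match, to the STAT letters, and C1qb and C3ar1 had none of the 4.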

How the data were processed

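Total RNA of 32 left ventricles was labelled with Cy3 and hybridised to 1-colour Agilent rat arrays. Agilent Feature Extraction 10.5 read the scans, with a different protocol on 1 female slide. For every array the authors deposited its spots, with a processed intensity (background subtracted by the software), raw mean and background intensities and marks of quality. A further deposited table holds log2 values that the authors had quantile-normalised by sex and filtered for expression. Total signal is not a depth, and the number of arrays limits the precision.

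Here outlier spots were left out, processed intensities were converted to log2, spots of a probe averaged and the 16 arrays of a sex quantile-normalised. A probe was kept if 80% or more of the arrays in any group had it well above background. The 3 groups of a sex entered one limma 3.58.1 fit (R 4.3.3, lmFit then eBayes). The FDR was 1% in comparisons with sham, and 5% between septic groups and for the interaction with sex. SAM, the test of the authors, was an alternative with 100 permutations. Tests were checked on simulated data, and correlations had 100000 permutations within groups. Arrays of a sex correlated at 0.936 to 0.989 in males and 0.930 to 0.986 in females, so no array was a copy. The groups held different animals, and the labels gave no numbers that pair them.

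Each member, all of them named, is given by its brightest probe on average across arrays. Other complement genes are named where they passed in a comparison. For C1qa, C3 and C5ar1 the 3 most similar genes are given. Members, lists and tests were chosen with earlier results of these data known. Coordinates of probes are from the files (rn4). Alternatives were another scaling, background correction, filter, prior, fit, test or FDR, joint normalisation, slide or row as a term, the table of the authors, mean over probes, and leaving out each array. Protein sequences were not used here.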

Additional observations from a re-analysis of the deposited data

Results flagged for a closer look

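C3ar1 in landiolol-treated females had 1 array far from the others. Replicate 3 read 7.66, below the next array at 8.40, while the others lay between 8.40 and 8.54. It was 1 of 54 groups of arrays looked at (9 genes in 6 groups), and chance gives about 1 in 20. Without it, C3ar1 in landiolol-treated females was 1.59 above sham (adjusted p 0.000603, limma) and 0.60 above CLP (adjusted p 0.376).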

How the results depend on the processing

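Of 2214 recomputed changes of members, 2150 kept their sign and their side of the threshold, 7 lost a call, 3 gained one and 54 changed sign, none of them a called change. The number of members called stayed within 1.5 times in CLP vs sham and CLP plus landiolol vs sham in males, CLP plus landiolol vs CLP in females and both tests of the sexes. In males under landiolol it went from 1 to 0 with only the groups compared in the fit, at an FDR of 1%, and with the mean of the probes of a gene, and ran from 0 to 1 over arrays left out (0 without male CLP replicate 4). In females CLP vs sham gave 3 members at an FDR of 5% (C2, C3 and C3ar1) and 2 by SAM (C2 and C3), and CLP plus landiolol vs sham gave 1 with the row as a term and 1 with the mean of probes, C3 each time. The cause was not tested. Counts over all probes moved more. CLP plus landiolol vs CLP gave 403 probes in males (121 to 1058 over arrays left out, 158 with only the groups compared, 246 without a filter, 85 at an FDR of 1%, 609 by SAM) and 24 in females (0 to 132, 2, 5, 0 and 41). With the row as a term, female CLP plus landiolol vs sham fell from 1332 probes to 20 and CLP vs sham from 923 to 337. SAM gave 2853 probes for the former, and 1705 in place of 1074 in males. At an FDR of 5%, comparisons with sham gave 2329 to 4133. With 75th percentile scaling and with slide means removed, the 6 correlations kept their sign and their side of the threshold.

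Small changes that crossed 0 in females after CLP were C1qc (-0.0105 with 75th percentile scaling, -0.0249 with normexp, -0.0496 in the authors' table), C5ar1 (-0.0178 with the slide, -0.053 with the row), C1s (0.0256 with the row) and C1qb (-0.0776 in the authors' table). Over arrays left out they ran from -0.0517 to 0.0785 for C1qb, -0.10 to 0.21 for C1qc and -0.0811 to 0.17 for C5ar1. In males, C2 against sham under landiolol ran from -0.29 to 0.086, and against CLP C1qb ran from -0.15 to 0.048 and Cfb from -0.31 to 0.11. In females under landiolol C2 ran from -0.0175 to 0.36 and Cfb from -0.24 to 0.0735. The difference between the sexes after CLP for C3ar1 was -0.0187 with normexp and ran from -0.069 to 0.19. Under landiolol it ran from -0.0453 to 0.26 for C1s, -0.23 to 0.19 for Cfb and -0.22 to 0.0464 for C3ar1. No paired analysis was possible because the labels give no replicate numbers.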
